A study of Rattus norvegicus with 6 samples.

Results

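The liver X receptors (LXR) and the genes of cholesterol efflux were examined in cultured primary cells of the rat nucleus pulposus, the soft centre of the intervertebral disc. They were 10 genes taken by symbol from the 17093 genes of each deposited table: the receptors Nr1h2 and Nr1h3, and the LXR target genes Apoe, Abca1, Abcg1, Pltp, Smpdl3a, Lpcat3, Mylip and Arl4c. RNA sequencing was done on 3 libraries of cells that had spent 48 h without fetal bovine serum (serum starvation) and on 3 control libraries, whose cells spent the 48 h in DMEM-F12 medium with 10% serum. All cells came from male animals and were used at passages 3 to 6, and no strain, age or genetic change is given in the labels. Whether libraries of the same group stem from different animals or cultures is not stated, so every p-value here rests on a spread that may be technical. The genes were chosen by their place in the LXR pathway together with their values in this same contrast, serum-starved against control, so those values are given as a description, without a test.

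LXRs are nuclear receptors that bind oxysterols and desmosterol, products and intermediates of cholesterol metabolism, and act on DNA as dimers with a retinoid X receptor (RXR). When the cell holds much sterol they turn on genes that move cholesterol out of the cell and limit its uptake, while the SREBP2 system does the opposite when sterol is scarce. Serum brings lipoproteins, the main outside source of cholesterol for cultured cells, and its withdrawal also removes growth factors. Disc cells live in a tissue with few vessels, where supply of such factors is limited.

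Values are the deposited ones, treated as FPKM, that is, fragments corrected for the length of the transcript and the size of the library, so levels of different genes can be set side by side per length. Differences were taken on the log2(value + 1) scale as serum-starved minus control, each with a standard error (SE), and folds are ratios of mean deposited values. Library sums ran from 447788 to 473452 (serum-starved) and from 522165 to 530095 (control), and the depth in reads is unknown. Pearson's r across tested genes was 0.988 to 0.994 between libraries of the same group and 0.894 to 0.92 between groups. Control replicate 3 lay nearest to the serum-starved mean, of the 3 controls, for 43.4% of all genes that passed the test below and for 6 of the 10 genes described here. Of 16 listed symbols for nucleus pulposus markers 12 were matched. The filter on low values (1 or more in no fewer than 3 libraries) was passed by 9 markers, and their levels moved with the groups. The symbols Tbxt, T, Krt19 and Shh, which may not all be separate genes, were not matched, so levels under them are unknown. The matched markers summed to 229 to 238 in serum-starved and 393 to 425 in control libraries. Acan was at 77.5 ± 28.1 in control and 3.05 ± 0.333 in serum-starved cells, Slc2a1 at 142 and 30.7, Sox9 at 5.11 and 1.27, Foxf1 at 33.3 and 21.8, Hif1a at 122 and 96.6, Krt8 at 2.58 and 1.28 and Car12 at 1.76 and 0.05. Pax1 and Car3 were higher in serum-starved cells, at 51.2 against 27.5 and at 26.1 against 1.03. Krt18 was listed at 0 in every library, Col2a1 reached at most 0.06 and Cd24 at most 0.56. The part of these shifts in the results below was not tested. In such bulk samples fewer cells of a type and less RNA per cell cannot be told apart.

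Among the 10 genes, Apoe, Smpdl3a, Abca1, Nr1h3 and Mylip were higher in every serum-starved library than in any control, and Arl4c, Lpcat3 and Abcg1 were lower in every one. Of all 11493 tested genes, 68.2% did not overlap between the groups, 35.7% higher and 32.5% lower, and since the genes were chosen with this contrast known, nothing is read from the count. Nr1h2 and Pltp overlapped between the groups. The filter for testing, which asked for 3 or more libraries with values of 1 or higher, was passed by 9 of the 10 genes, and Abcg1 lay below it.

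**Figure D1:**
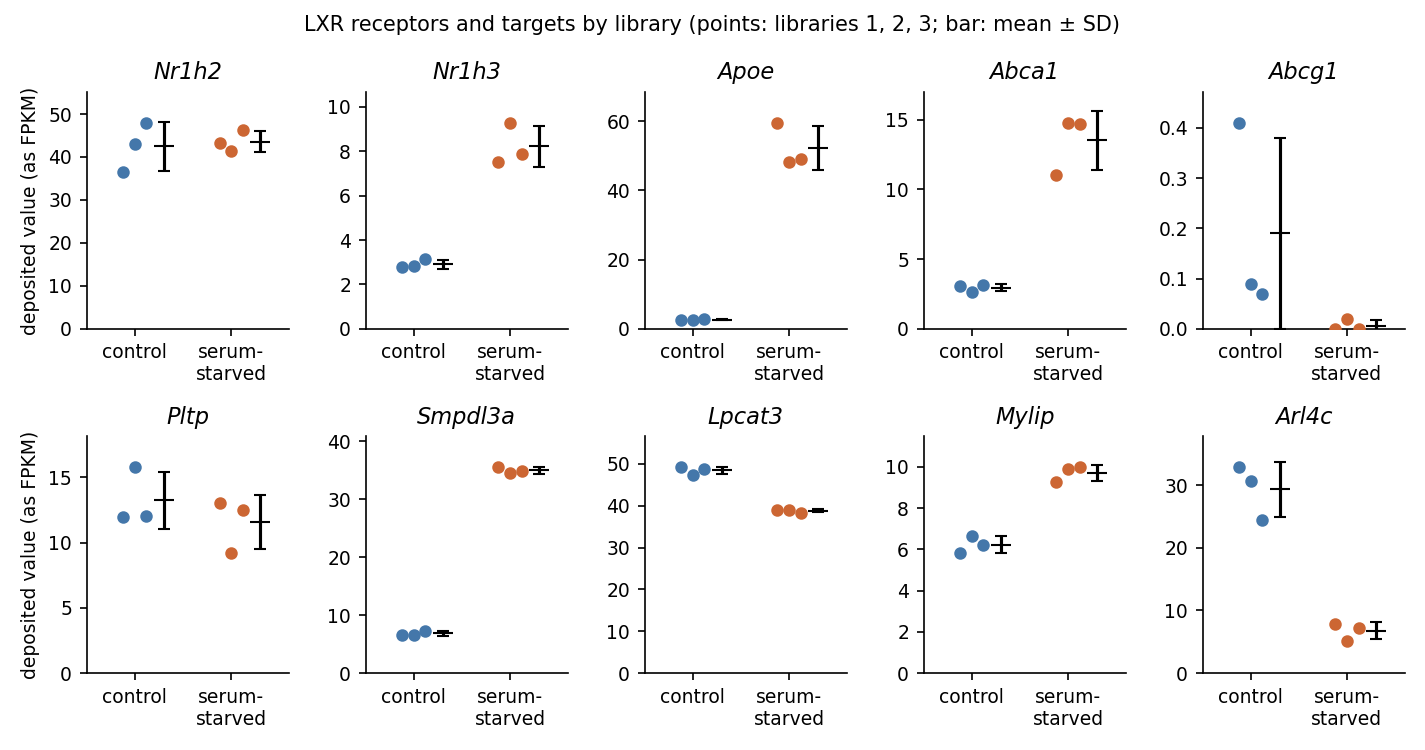
Deposited values (as FPKM, linear axes that start at 0) of the 10 genes in each control (blue) and serum-starved (orange) library, with the mean ± SD of 3 libraries as a black bar. Apoe goes from 2.57 to 2.96 in the controls to 48.3 to 59.5 in serum-starved cells, while the points of Nr1h2 and Pltp overlap between the groups.

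Nr1h2 encodes LXR beta, the form present in most cell types, and Nr1h3 encodes LXR alpha, which is abundant in liver, fat and macrophages and is itself an LXR target in some cells. Nr1h2 (gene ID 58851) stood at 36.5, 42.9 and 47.9 in control replicates 1, 2 and 3 and at 43.2, 41.4 and 46.2 in serum-starved replicates 1, 2 and 3, the order used for every gene below. The groups overlapped, with the lowest and the highest value both among the controls. The log2 difference was 0.04 ± 0.1 (SE), and it turned to -0.06 without control replicate 1, the lowest library. Nr1h3 (gene ID 58852) was at 2.77, 2.83 and 3.13 in the controls and at 7.52, 9.27 and 7.87 in serum-starved libraries. All 3 serum-starved libraries lay above all controls, with a log2 difference of 1.23 ± 0.0965 (SE) and a 2.82-fold higher mean. Nr1h2 remained the more abundant receptor in every library. Nr1h3 made up 6.46% ± 0.524 (SD, n = 3) of the summed level of both receptors in control and 15.9% ± 2.09 (SD, n = 3) in serum-starved cells, while that sum was 45.4 ± 5.93 and 51.8 ± 1.97.

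Apoe encodes apolipoprotein E, a secreted carrier that takes up cholesterol and phospholipid leaving the cell and is bound by lipoprotein receptors. Apoe (gene ID 25728) was at 2.6, 2.57 and 2.96 in the controls and at 59.5, 48.3 and 49.0 in serum-starved libraries. The lowest serum-starved library was far above the highest control, and the 3 controls lay close together. Mean levels were 2.71 ± 0.217 and 52.3 ± 6.25 (SD, n = 3 each), 19.3-fold higher in serum-starved cells, with a log2 difference of 3.84 ± 0.0964 (SE). By mean level Apoe stood at place 9774 of the 17093 genes in control cells and at place 1493 in serum-starved cells. Ordered by upward log2 difference it stood at place 9 of the 11493 tested genes. Without control replicate 3 the log2 difference was 3.89.

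Abca1 and Abcg1 are membrane transporters of the ABC family that load cholesterol, with phospholipid, onto apolipoproteins and onto HDL particles. Abca1 (gene ID 313210) was at 3.07, 2.66 and 3.15 in the controls and at 11.0, 14.8 and 14.7 in serum-starved libraries. Serum-starved replicate 1 was the lowest of its group and still above each control. The mean went from 2.96 ± 0.263 to 13.5 ± 2.14 (SD, n = 3 each), 4.56-fold higher, with a log2 difference of 1.86 ± 0.12 (SE). Abcg1 (gene ID 85264) was near the floor of the tables, at 0.41, 0.09 and 0.07 in the controls and 0, 0.02 and 0 in serum-starved libraries. The control mean rested on control replicate 1, and no fold is given. Pltp, the phospholipid transfer protein that moves phospholipid between lipoproteins, was at 11.9, 15.8 and 12.1 in the controls and at 13.1, 9.22 and 12.5 in serum-starved libraries (gene ID 296371). Control replicate 2 was the highest and serum-starved replicate 2 the lowest, and the other 4 libraries lay between 11.9 and 13.1. The log2 difference of Pltp was -0.18 ± 0.146 (SE).

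Smpdl3a and Lpcat3 encode enzymes of phospholipid and nucleotide breakdown or remodelling. Smpdl3a, a secreted phosphodiesterase related to acid sphingomyelinase, was at 6.67, 6.65 and 7.31 in the controls and at 35.6, 34.5 and 34.9 in serum-starved libraries (gene ID 294422). The serum-starved libraries were tightly grouped and far above the controls, with means of 6.88 ± 0.375 and 35.0 ± 0.539 (SD, n = 3 each). That was 5.09-fold higher, with a log2 difference of 2.19 ± 0.0666 (SE). Lpcat3, the acyltransferase that places polyunsaturated fatty acids into phospholipids, was at 49.2, 47.5 and 48.7 in the controls and at 39.0, 39.0 and 38.4 in serum-starved libraries (gene ID 362434). All 3 serum-starved libraries lay below all controls by a small amount, 1.25-fold, with a log2 difference of -0.31 ± 0.0557 (SE). When libraries were scaled to the same total that difference was -0.13.

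Mylip encodes IDOL, a ubiquitin ligase that marks lipoprotein receptors such as VLDLR and LRP8 for breakdown, and Arl4c encodes a small GTPase of vesicle and cholesterol transport. Mylip (gene ID 306825) was at 5.82, 6.63 and 6.22 in the controls and at 9.25, 9.87 and 9.98 in serum-starved libraries. The groups did not overlap, and the mean was 1.56-fold higher with a log2 difference of 0.57 ± 0.0778 (SE). Arl4c (gene ID 103693239) was at 32.9, 30.7 and 24.4 in the controls and at 7.77, 5.20 and 7.25 in serum-starved libraries. It was the gene of the group with the largest downward difference, with a 4.35-fold lower mean and a log2 difference of -1.98 ± 0.151 (SE). Control replicate 3 was the lowest control for Arl4c, and without it the log2 difference was -2.1.

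**Figure D2:**
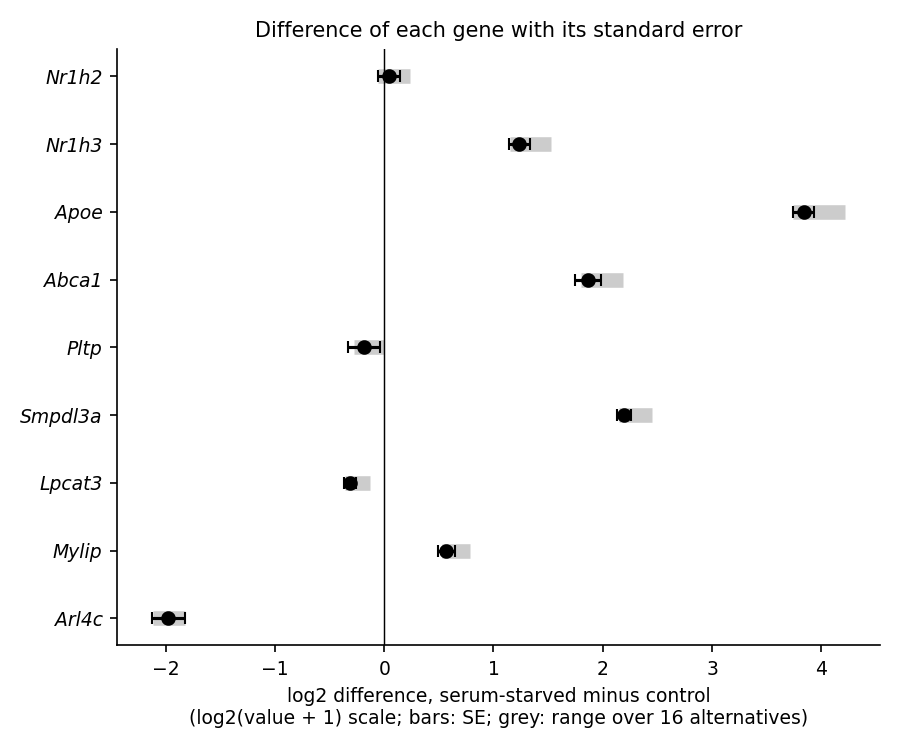
Log2 difference (serum-starved minus control, log2(value + 1) scale) of the 9 genes above the filter, with the SE as a bar and, in grey, the lowest to highest value over 16 other ways of processing. Apoe lies farthest to the right at 3.84 and Arl4c farthest to the left at -1.98, and the grey band crosses 0 for Nr1h2.

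Set side by side per length, the order of the 10 genes differed between the groups. In control cells Lpcat3 (48.5 ± 0.911, SD, n = 3) and Nr1h2 led with overlapping libraries, followed by Arl4c (29.3 ± 4.38), Pltp (13.3 ± 2.19), Smpdl3a and Mylip. Abca1, Nr1h3 and Apoe came next with means of 2.96, 2.91 and 2.71, each overlapping its neighbour, and Abcg1 was last. In serum-starved cells Apoe was first, and Nr1h2 (43.6 ± 2.44), Lpcat3 (38.8 ± 0.35) and Smpdl3a followed without overlap between neighbours. Abca1 (13.5), Pltp (11.6), Mylip (9.70), Nr1h3 (8.22) and Arl4c (6.74) then formed a run in which each overlapped the next, and Abcg1 was again last. Apoe thus went from place 9 to place 1 and Arl4c from place 3 to place 9.

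**Figure D3:**
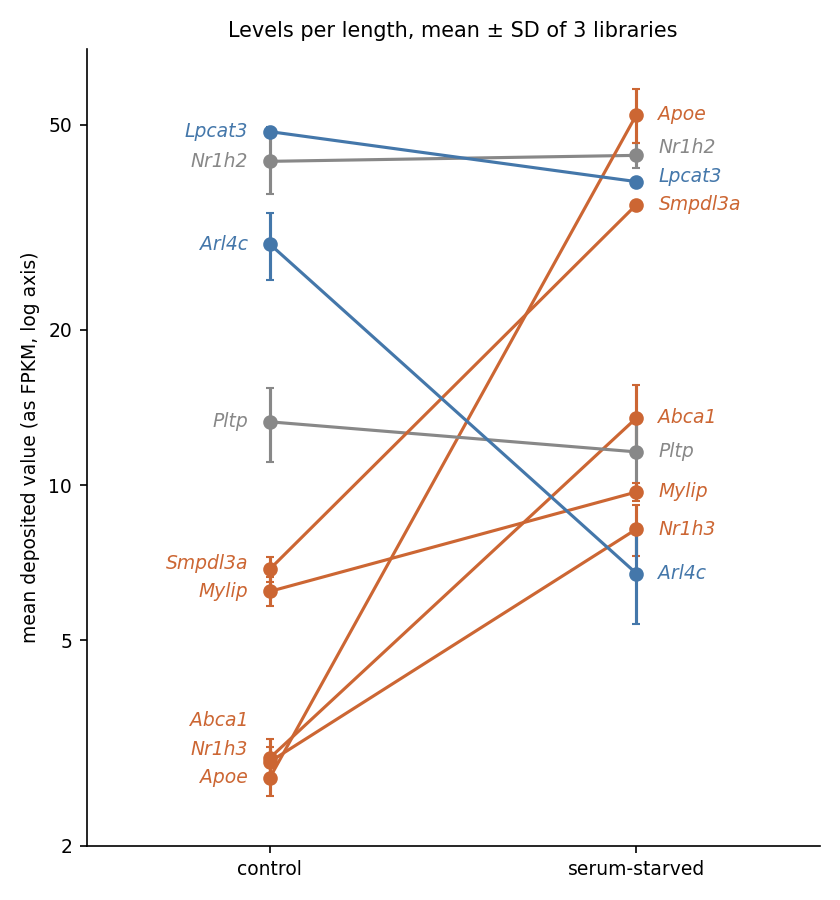
Mean level per length (deposited values as FPKM, log axis; bars: SD of 3 libraries) of 9 genes in control and serum-starved cells, with orange for genes higher and blue for genes lower in every serum-starved library and grey for overlapping groups. Apoe, Abca1 and Nr1h3 start together near 2.7 to 3.0 and end at 52.3, 13.5 and 8.22. Abcg1, near 0 in both groups, is left out.

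The promoters of 3 genes are shown because these genes had the largest upward differences of the 10. LXR and RXR dimers bind a direct repeat of the hexamer AGGTCA with a spacer of 4 bases, and the ABCA1 promoter is known in other species for such an element close to its start. The repeat was searched on both strands, with at most 3 mismatches over its 12 fixed bases, in the window from 250 bases before to 50 bases after each start in RefSeq's GRCr8 table. Windows were found for 9 of the 10 genes, 11 windows in all, with 3 for Apoe, and Abcg1 had no entry. The letters below are the 250 bases before a start on the strand of the gene, from RefSeq (GRCr8), in lower case with matches to the repeat in capitals: Abca1 at chr5:72596474-72596723 on the minus strand, Smpdl3a at chr20:37678754-37679003 on the plus strand and Apoe, from the middle one of its 3 starts, at chr1:88484700-88484949 on the minus strand.
Abca1: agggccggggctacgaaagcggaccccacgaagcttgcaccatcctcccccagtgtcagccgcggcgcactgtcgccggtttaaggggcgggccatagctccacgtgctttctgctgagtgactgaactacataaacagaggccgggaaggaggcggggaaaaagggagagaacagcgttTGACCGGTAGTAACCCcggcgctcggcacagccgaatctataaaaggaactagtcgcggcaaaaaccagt
Smpdl3a: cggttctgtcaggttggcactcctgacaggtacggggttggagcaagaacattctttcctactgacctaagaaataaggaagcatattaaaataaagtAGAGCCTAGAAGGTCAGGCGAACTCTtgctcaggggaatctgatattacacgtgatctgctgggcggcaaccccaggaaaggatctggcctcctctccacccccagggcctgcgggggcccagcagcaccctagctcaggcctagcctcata
Apoe: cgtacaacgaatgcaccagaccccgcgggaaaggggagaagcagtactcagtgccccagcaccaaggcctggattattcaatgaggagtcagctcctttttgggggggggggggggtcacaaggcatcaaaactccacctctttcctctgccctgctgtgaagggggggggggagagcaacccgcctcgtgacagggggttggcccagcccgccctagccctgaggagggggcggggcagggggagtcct

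Abca1 held 1 match, from 70 to 55 bases before the start, with 3 mismatches, which reads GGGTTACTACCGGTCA on the strand opposite to the gene, and a TATAAA box began 32 bases before the start. Smpdl3a held 2 matches that overlap each other and share 1 exact hexamer, from 152 to 137 and from 142 to 127 bases before the start, with 3 mismatches each. None of the 3 Apoe windows held the repeat, nor did those of Nr1h2, Nr1h3, Pltp, Lpcat3, Mylip and Arl4c. At this tolerance 21.9% of all 33469 windows held a match. Among the 11 windows of the 9 genes, 2 held a match, which is close to the share of any promoters. With at most 2 mismatches 0 of the 9 genes and 2.93% of all windows held one. The E-box CACGTG, the same on both strands, was in the windows of Abca1 and Smpdl3a (6.42% of all windows), and TATAAA on the strand of the gene was in those of Abca1 and Mylip (8.8%). These matches describe letters in these windows and no binding was measured.

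The other genes of the pathway were tested as 8 lists of 129 symbols in all, of which 118 were matched and 85 passed the filter. These lists, too, were chosen with earlier results of these data known. Their p-values therefore describe the genes in this contrast and are no independent support. The test was limma with Benjamini-Hochberg adjustment over all 11493 tested genes, at an adjusted p of at most 0.05. Across all tested genes 31.7% rose and 29.4% fell, 61.1% together, with a median log2 difference of 0.03. The 85 pathway genes comprised 26 that rose, 32 that fell and 27 without a call, at a median of -0.03. With 61.1% of all genes passing, the share of a list that passed says little about that list.

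Of the 15 tested partners and coregulators of LXR, there were 8 that rose, 1 that fell and 6 without a call (median log2 difference 0.22). The RXR genes, which give LXR its dimer partner, were Rxra at 16.3 ± 0.771 in control and 16.2 ± 1.89 in serum-starved cells, and Rxrb at 10.2 ± 0.841 and 11.3 ± 0.726 (SD, n = 3 each). Neither passed the test (limma, adjusted p = 0.915 and 0.178). Ncoa1, a coactivator of nuclear receptors, rose 1.98-fold to 6.79 ± 0.845, and Nrip1, a corepressor known for lipid metabolism, rose 1.95-fold to 3.15 ± 0.15. The acetyltransferase genes Ep300 and Crebbp rose 1.52-fold and 1.499-fold. Tbl1x, a part of a corepressor complex, rose 1.2-fold to 35.5 ± 1.91. Among the 5 genes named as rising, Tbl1x had the highest adjusted p (limma, 0.00811).

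LXR ligands were not measured, and only the mRNA of enzymes that make and remove them is described. Of 9 tested genes of oxysterol and desmosterol metabolism, 4 fell, 1 rose and 4 had no call (median log2 difference -0.26). Among those that fell, Dhcr7, Ebp and Sc5d encode enzymes late in cholesterol synthesis. Dhcr7 fell 2.67-fold from 15.5 ± 0.767 to 5.81 ± 0.314, Ebp 1.91-fold and Sc5d 1.59-fold (limma, highest adjusted p = 0.000544, Sc5d). Hsd3b7, which acts in bile acid synthesis from oxysterols, was at 21.9 ± 1.18 and 24.6 ± 0.807 and did not pass (limma, adjusted p = 0.0598), although it passed with libraries scaled to the same total (adjusted p = 0.00206), after quantile normalization (0.0132) and with library weights (0.0414). Cyp27a1, which makes 27-hydroxycholesterol, was the gene counted as risen, from 0.903 ± 0.127 to 1.51 ± 0.131. Its controls, at 0.76, 0.95 and 1, would not have passed the filter at such levels. It was tested through the serum-starved libraries, so its call supports nothing. Ch25h, which makes 25-hydroxycholesterol, was below the filter, at 0.21, 0.46 and 0.32 in the controls and 1.16, 0.76 and 0.91 in serum-starved libraries. Cyp7a1 was listed at 0 in every library.

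**Figure D4:**
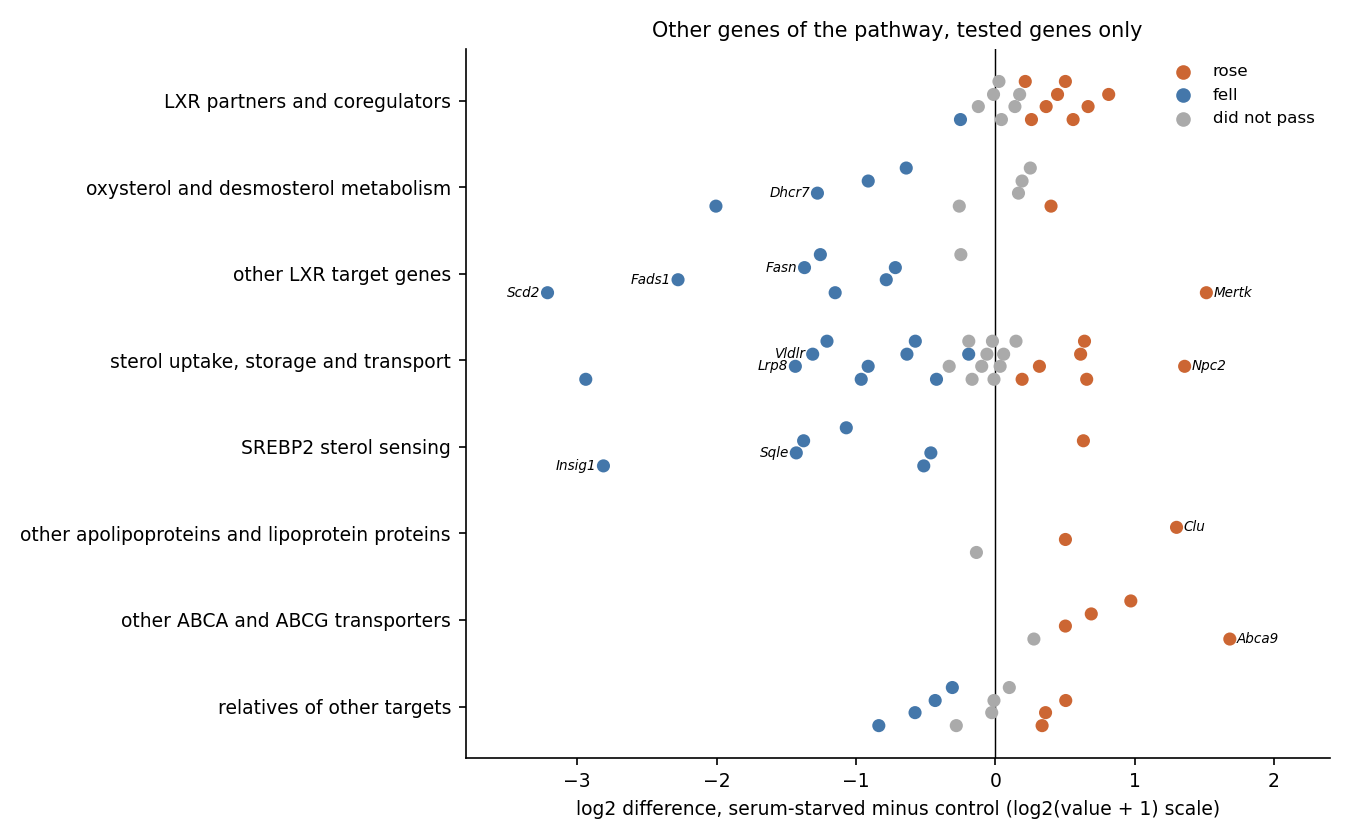
Log2 difference (serum-starved minus control, log2(value + 1) scale) of the 85 tested pathway genes in 8 lists, 1 point per gene, in orange where limma called a rise, blue a fall and grey neither. Points of the list of other LXR targets lie left of 0 except Mertk at 1.51, and those of the ABCA transporters lie right of 0. Height within a row has no meaning.

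Further LXR targets outside the 10 genes went mostly the other way from Apoe and Abca1. A fall was called for 7 of 9 tested genes and a rise for 1, at a median log2 difference of -1.15, and 7 of those 9 are enzymes of fatty acid synthesis, elongation or desaturation that SREBP1 also drives. The desaturase genes Scd2 and Fads1 fell 9.56-fold and 4.94-fold, and the fatty acid synthase gene Fasn 2.73-fold. Srebf1, the gene of SREBP1 and itself an LXR target, was at 27.9, 32.6 and 30.0 in the controls and at 11.9, 12.2 and 12.1 in serum-starved libraries. All 3 serum-starved libraries lay below the controls, and Srebf1 fell 2.51-fold with a log2 difference of -1.26 ± 0.0733 (SE; limma, adjusted p = 3.06e-06). Mertk, a receptor for the uptake of dying cells, was the gene counted as risen, at 0.17, 0.15 and 0.26 in the controls and 2.22, 3.25 and 1.89 in serum-starved libraries (log2 difference 1.51 ± 0.15, SE). Mertk passed the filter only through the serum-starved libraries, and Elovl6, counted among the falls, only through the controls. Each had to differ to be tested, so their calls support nothing. The counts of 7 and 1 include both genes, and the median of -1.15 is the value of Elovl6 itself. With the filter at 5, which neither gene reached, the list had 6 falls and 0 rises. Lpl was listed at 0 in all libraries.

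Sterol uptake, storage and transport was the longest list, with 26 tested genes, with calls of 10 falls and 6 rises and 10 genes without a call (median log2 difference -0.13). Among the receptors whose proteins IDOL marks for breakdown, Lrp8 fell 3.5-fold to 2.19 ± 0.334 and Vldlr 2.65-fold to 8.88 ± 0.19. Scarb1, the HDL receptor, fell 2.43-fold, and Soat1, which esterifies cholesterol for storage, 1.57-fold. The pair that passes cholesterol out of the lysosome split: the soluble carrier Npc2 rose 2.58-fold from 99.3 ± 7.5 to 256 ± 16.8, and the membrane protein Npc1 fell 1.51-fold from 28.2 ± 2.02 to 18.6 ± 1.52. Lrp1, a large endocytic receptor that binds apolipoprotein E, rose 1.53-fold to 230 ± 28.8. Cav1, which coats cholesterol-rich pits of the membrane, fell 1.88-fold to 242 ± 20.4. Of these 8 genes Lrp1 had the highest adjusted p (limma, 0.00308).

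The SREBP2 side of sterol sensing, the system that turns on when sterol is scarce, fell in 6 of 7 genes while 1 rose (median log2 difference -1.07). Insig1, the sterol-regulated anchor of SREBP in the endoplasmic reticulum, was at 149.2, 158.7 and 140.2 in the controls and 18.6, 21.1 and 21.7 in serum-starved libraries. The synthesis enzymes Sqle and Hmgcs1 fell 2.84-fold and 2.15-fold. Srebf2, the gene of SREBP2, fell 1.45-fold from 33.3 ± 3.04 to 23.0 ± 1.01, and Insig2 1.41-fold. Scap, which escorts SREBP to the Golgi, rose 1.59-fold from 13.0 ± 0.705 to 20.8 ± 1.07. The highest adjusted p of the 7 genes was 0.00405 (limma, Insig2), and Insig2 did not pass when libraries were scaled to the same total (adjusted p = 0.0514).

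Few of the other lipoprotein genes that were matched passed the filter. Of 21 listed symbols, Apoc2, Apod, Apol3, Apon and Lipc were not matched, so their levels are unknown. Of 16 matched apolipoprotein and lipoprotein genes 13 were below the filter, among them Apoa1, which reached at most 0.60 in any library, and Apoc1, a neighbour of Apoe in the genome, at most 0.01. Of the 3 tested genes 2 rose and 1 did not pass (median log2 difference 0.5). Clu, or apolipoprotein J, a secreted chaperone carried on HDL, was at 31.6, 45.0 and 52.7 in the controls and at 104.4, 112.0 and 100.1 in serum-starved libraries. The groups did not overlap although the controls varied, and Clu rose 2.45-fold (limma, adjusted p = 0.000197). Lcat, which esterifies cholesterol on HDL, rose 1.5-fold to 7.09 ± 0.497 (limma, adjusted p = 0.00205). Hdlbp, the RNA-binding protein vigilin, was at 227 ± 5.53 and 207 ± 6.73 and did not pass (limma, adjusted p = 0.0777).

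Of the 5 tested transporters of the ABCA and ABCG subfamilies besides Abca1 and Abcg1, 4 rose, 0 fell and 1 had no call (median log2 difference 0.69). Abca9, a transporter regulated by cholesterol in macrophages, was at 1.36, 1.70 and 1.17 in the controls and at 6.66, 6.47 and 7 in serum-starved libraries. Its libraries did not overlap, and it rose 4.76-fold with a log2 difference of 1.68 ± 0.103 (SE; limma, adjusted p = 3.92e-06). Abca2, a transporter of lysosomes and endosomes, rose 2.06-fold to 19.2 ± 1.35, Abca3, known for surfactant lipid in lung, 1.65-fold to 23.9 ± 0.917, and Abca7 1.54-fold to 5.21 ± 0.153. The highest adjusted p of these 4 was 0.000632 (limma, Abca7). The log2 differences of all 5 were above 0, so no threshold on p could have given a fall.

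Close relatives of the remaining targets split, with 4 falls, 3 rises and 4 genes without a call among 11 tested (median log2 difference -0.03). Among lysophospholipid acyltransferases related to Lpcat3, Lpcat1 fell 1.86-fold, Mboat1 1.6-fold and Mboat7 1.39-fold, while Lpcat2 rose 1.58-fold. Smpd1, the acid sphingomyelinase related to Smpdl3a, rose 1.26-fold to 113 ± 3.9, against 5.09-fold for Smpdl3a. Arl4d, a relative of Arl4c, was at 11.6, 19.1 and 28.1 in the controls and at 20.3, 20.04 and 19.2 in serum-starved libraries and did not pass (limma, adjusted p = 0.745). The controls spanned the whole serum-starved range. Of the 5 acyltransferase and sphingomyelinase genes named here, Mboat1 had the highest adjusted p (limma, 0.0099).

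Markers of other cell types moved with the groups in part. Apoe, Abca1 and Nr1h3 are abundant in macrophages, of whose 15 listed markers 7 were matched and 2 (Cd14 and Cd68) passed the filter. Their summed level was 10.7 to 14.3 in serum-starved and 23.7 to 30.2 in control libraries, and most of it was Cd14. The markers did not move together: Cd14 was at 7.17 to 10.66 in serum-starved and 21.77 to 27.4 in control libraries, whereas Cd68 was higher in every serum-starved library, at 3.4, 2.77 and 3.97 against 2, 1.47 and 2.4. Lyz2 was listed at 0 in all controls and at 0.13, 0.12 and 0.18 in serum-starved libraries. Of the defining macrophage genes, Cd163 was listed at 0 throughout, Adgre1 reached at most 0.02 and Csf1r 0.25. All 7 adipocyte markers lay below the filter, with sums of 1.71 to 2.34 in serum-starved and 0.47 to 1.17 in control libraries and Adipoq and Cidec at 0. The 5 matched glial markers summed to 111 to 120 in serum-starved and 28.7 to 37.6 in control libraries, nearly all of it S100b, which cartilage-type cells also express, with Sox10 at 0. The 4 matched endothelial markers summed to at most 1.19 in any library, and the 4 matched tendon and annulus markers to 103.6 to 117.8 in serum-starved and 154.6 to 190.8 in control libraries. Most of that difference was Tnc, at 59.4 ± 6.43 in serum-starved and 112 ± 19.4 in control cells, whereas Mkx was higher in every serum-starved library, at 10.19, 10.59 and 11.12 against 3.6, 4.06 and 3.13. Scx overlapped between the groups, at 37.3 ± 6.42 in serum-starved and 42.3 ± 3.03 in control cells. The part of such cells in the differences was not tested.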

How the data were processed

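RNA depleted of ribosomal RNA was sequenced from 3 serum-starved and 3 control libraries, per the labels' protocols. The authors deposited 1 table per library with 1 value per gene, to 2 decimals. The headers name no unit, and the deposited values are treated as FPKM because they are not whole numbers and library sums differ, although TPM over a wider gene set would look alike. The tools named in the submitters' processing notes are HISAT2, StringTie, bcl2fastq 2.0, limma and DESeq2, and the build named there is mm10, a mouse build. The gene IDs are rat, and 15927 of 17093 (93.2%) are in the GRCr8 gene table. The build behind the values is therefore open. Strand handling and the sharing of reads between similar genes are not given in the sources used here.

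Values were analysed as log2(value + 1). Genes that reached 1 in 3 or more libraries (11493, with 5600 left out) were fitted in limma 3.58.1 (R 4.3.3) with an intensity trend, treatment as single term, which left 4 residual degrees of freedom. The fit was tested on simulated data, in which 100 of 11493 genes were raised 2-fold and another 100 were raised 4-fold. It recovered 95 and 100 of them, with 5 false calls. In the deposited data far more genes passed, and in both directions, so that outcome need not hold for them. For 3 libraries against 3, the smallest two-sided p of an exact permutation test is 0.1. At most 0.265% of values of at least 5 were equal between 2 libraries. The alternatives were 2 pseudocounts (0.1 and 0.5), no filter or one at 5, 3 scalings, library weights, no trend, a replicate block and leaving out each library. Python 3.11.15, pandas 2.3.3, numpy 2.4.6 and matplotlib 3.10.9 were used. The genes described and the lists were chosen with earlier results of these data known. In each list the text names up to 4 called genes with the largest change, without overlap and with a mean of at least 1, and the 2 most abundant genes, and all genes of the sterol sensing list. Rxra, Rxrb, Cyp27a1, Ch25h, Cyp7a1, Srebf1, Elovl6, Lpl, Scarb1, Soat1, Npc1, Apoa1 and Apoc1 were named in addition, after their values were seen. A few genes that meet this rule are left out and not reported here.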

Additional observations from a re-analysis of the deposited data

How the results depend on the processing

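The 5 genes higher and 3 genes lower in every serum-starved library remained 5 and 3 in number under each of the 3 scalings. Leaving out a single library cannot lower these counts, so the same 5 and 3 found there say nothing about stability. Of the 3 lower genes 2 passed the filter on low values. Abcg1 did not, and its values near 0 say little about stability under the scalings. The 9 fitted log2 differences kept their sign under all 16 alternatives, except that of Nr1h2. Apoe ranged from 3.74 to 4.22 and Arl4c from -2.11 to -1.82. Scaling libraries to the same total raised the median of all genes by 0.19 on the log2 scale, with 5579 genes that rose and 2410 that fell, against 3640 and 3384. Under that scaling 7 ABCA and ABCG transporters rose, as did 3 genes of oxysterol and desmosterol metabolism, 0 partners of LXR fell, and Hdlbp turned to 0.057. More genes also passed the filter under it, 12205 against 11493. The 7 transporters thus include genes outside the 5 tested in the report. Median-ratio scaling gave 1 lipoprotein gene that fell. The number of oxysterol and desmosterol genes that rose was 2 with no filter, after quantile normalization and with library weights, 0 with the filter at 5, and 1 to 2 without single libraries (2 without control replicate 3). The number of LXR partners that fell, 1 in the report, was 0 with no filter, after quantile normalization, without the intensity trend and under the replicate block, and the count was 0 to 1 without single libraries, at 1 only without serum-starved replicate 2. The rise of Mertk gave way to 0 rises in its list with the filter at 5 and without any 1 serum-starved library (range 0 to 1), when Mertk no longer reached the filter. Arl4d, which did not pass, ranged from -0.213 (without control replicate 1) to 0.391 (without control replicate 3) when single libraries were left out. With 2 mismatches allowed, 0 promoters held the repeat. Except where stated, the cause was not tested. Same-numbered libraries deviated from their group means with correlations of 0.0367, -0.162 and 0.101. Differently numbered libraries of the 2 groups gave -0.164 to 0.164. Whether the numbers pair the libraries cannot be told from so few values. With the replicate block 3508 genes rose and 3293 fell. Values of 2 decimals and unknown depth leave Abcg1 and other genes near 0 without a usable fold.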
